A study of Mus musculus with 30 samples.

Results

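Dlk1, Twist1, Twist2, Gata2, Gata3, Klf2, Foxo1, Hes1, Sox9 and Runx2 are 10 genes whose products hold back fat cell formation or steer mesenchymal cells to cartilage and bone. They were chosen by name from 53350 named genes, and the levels of all named transcripts of each gene were summed. All 10 were found, and 9 reached 1 FPKM (fragments normalised to transcript length and library size) in at least 5 libraries and were tested. Gata3 did not exceed 0.46 FPKM in any library and is given as values only.

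The cells were 3T3-L1, murine fibroblasts of an established line able to differentiate to adipocytes, bought and used at low passage. RNA was sequenced from 30 cultures in 6 groups of 5. These were quizalofop-p-ethyl (QpE, a herbicide) at 50 µM and control, as labelled, at 6 h, at 24 h and at 12 days. All groups shared the same pre-culture in a fat-inducing medium with insulin at 100 nM and the phosphodiesterase inhibitor isobutylmethylxanthine at 500 µM. The protocol describes medium changes over fewer days than the 12 day label, which is used as given. The labels number culture replicates 1 to 5, and p-values measure the spread between these cultures, which may be partly technical.

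Fibroblast-like precursors become fat cells when the receptor PPARG and the C/EBP factors switch on, and several proteins delay that switch. DLK1 (also called PREF-1) is a membrane protein with EGF repeats whose shed outer part keeps precursors undifferentiated, SOX9 acts downstream of it, and GATA2, GATA3 and KLF2 repress Pparg. TWIST1 and TWIST2 are mesenchymal bHLH factors, HES1 is the repressor induced by Notch, FOXO1 is switched off by insulin signalling, RUNX2 starts bone formation and SOX9 cartilage formation.

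Dlk1 lies on chromosome 12 at 109452823 to 109463336 (plus strand, GRCm38), and Twist1 on the same chromosome at 33957671 to 33959829 (plus strand). Runx2 spans 44495987 to 44814797 on the minus strand of chromosome 17, Gata2 spans 88193891 to 88207032 on the plus strand of chromosome 6, and Sox9 spans 112782224 to 112787760 on the plus strand of chromosome 11. Foxo1 covers 52268336 to 52353221 on the plus strand of chromosome 3, and Hes1 covers 30064384 to 30067796 on the plus strand of chromosome 16. All 10 are annotated as protein coding.

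RefSeq (GRCm38.p6) gives 9 promoter windows for 8 of the 10 genes, each from 250 bases before to 50 bases after a start. Those of Dlk1, Twist1 and Runx2 are shown because these genes stood lower with QpE at 12 days, and because the Runx2 window marks a start that was hardly used. Each is written 5′ to 3′ on the gene's strand. Capitals mark, on either strand, the FOXO word TGTTTAC, the GATA word GATAA and the RUNX word TGTGGT in Dlk1. They also mark the TATA box word TATAAA in Twist1, wherever it lies in the window, and the RUNX word in Runx2.
Dlk1, chr12:109452573-109452872, plus strand: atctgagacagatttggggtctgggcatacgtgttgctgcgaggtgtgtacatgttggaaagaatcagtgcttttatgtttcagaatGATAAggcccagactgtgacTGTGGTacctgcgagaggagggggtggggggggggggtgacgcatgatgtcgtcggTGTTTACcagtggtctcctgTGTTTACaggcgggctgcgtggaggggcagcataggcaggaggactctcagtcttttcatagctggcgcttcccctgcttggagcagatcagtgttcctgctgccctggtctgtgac
Twist1, chr12:33957421-33957720, plus strand: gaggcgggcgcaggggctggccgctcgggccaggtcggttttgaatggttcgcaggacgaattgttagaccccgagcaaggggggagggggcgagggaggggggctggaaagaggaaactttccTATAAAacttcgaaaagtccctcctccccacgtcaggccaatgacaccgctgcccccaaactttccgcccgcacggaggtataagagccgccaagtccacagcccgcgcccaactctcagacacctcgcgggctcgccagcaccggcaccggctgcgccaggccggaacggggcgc
Runx2, chr17:44814578-44814877, minus strand: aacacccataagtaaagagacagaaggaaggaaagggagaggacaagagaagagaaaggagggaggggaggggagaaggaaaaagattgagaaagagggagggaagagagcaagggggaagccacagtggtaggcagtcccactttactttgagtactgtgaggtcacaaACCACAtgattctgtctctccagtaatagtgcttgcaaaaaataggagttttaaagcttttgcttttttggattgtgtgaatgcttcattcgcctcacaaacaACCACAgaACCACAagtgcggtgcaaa

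The Dlk1 window held 2 FOXO words, 1 GATA word and 1 RUNX word, none overlapping another. Of 32851 mouse promoter windows of this length, 3.65% held a FOXO word, 25.4% a GATA word and 16.8% a RUNX word, 0.110% held at least 2 FOXO words and 0.268% held all 3 kinds. The Runx2 window held 3 RUNX words, as did or exceeded 0.183% of windows. Shares for repeats and for all 3 kinds were worked out only for patterns found in the Dlk1 and Runx2 windows. They are descriptions, and whether such patterns exceed chance was not tested. A TATA box word was found in 1 of the 9 windows, that of Twist1, and in 13.6% of all windows. Of the 9 windows, 1 held a FOXO word, 1 a GATA word and 2 a RUNX word. Of the other words searched, GGGCGG was in 7 of the 9 windows (35.7% of all windows) and CACCC in 5 (57.5%). CACNAG was in 4 (42.5%), CANNTG in 4 (72.3%), and ACAAAG and GTGGGAA in 0 (18.7% and 6.38%). GC content was 55.7% for Dlk1, 66.0% for Twist1 and 45.3% for Runx2, against a median of 52.7% over all windows. A match is a string of letters and not a measured binding site. The most abundant Dlk1 transcript begins at 109453491, downstream of the window shown.

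On the FPKM scale, which is per length, the 10 genes covered a wide range. Dlk1 averaged 767 FPKM over the 30 libraries, above 99.7% of named tested genes. Twist2 (60.7 FPKM), Twist1 (45.6), Hes1 (22.3) and Sox9 (15.2) followed, then Runx2 (5.88), Foxo1 (4.55) and Gata2 (2.96), and lowest Klf2 (1.02) and Gata3 (0.23). An approximate count behind these levels, from the estimated depth, was a median of 14703 fragments per library for Dlk1. It ran from 1.0 to 209.8 for Gata2, with a median of 124.7, from 8.3 to 48.8 for Klf2, and had a median of 8.9 and a lowest value of 2.4 for Gata3. The lowest Gata2 count, of about 1 fragment, was that of QpE replicate 5 at 12 days.

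**Figure D1:**
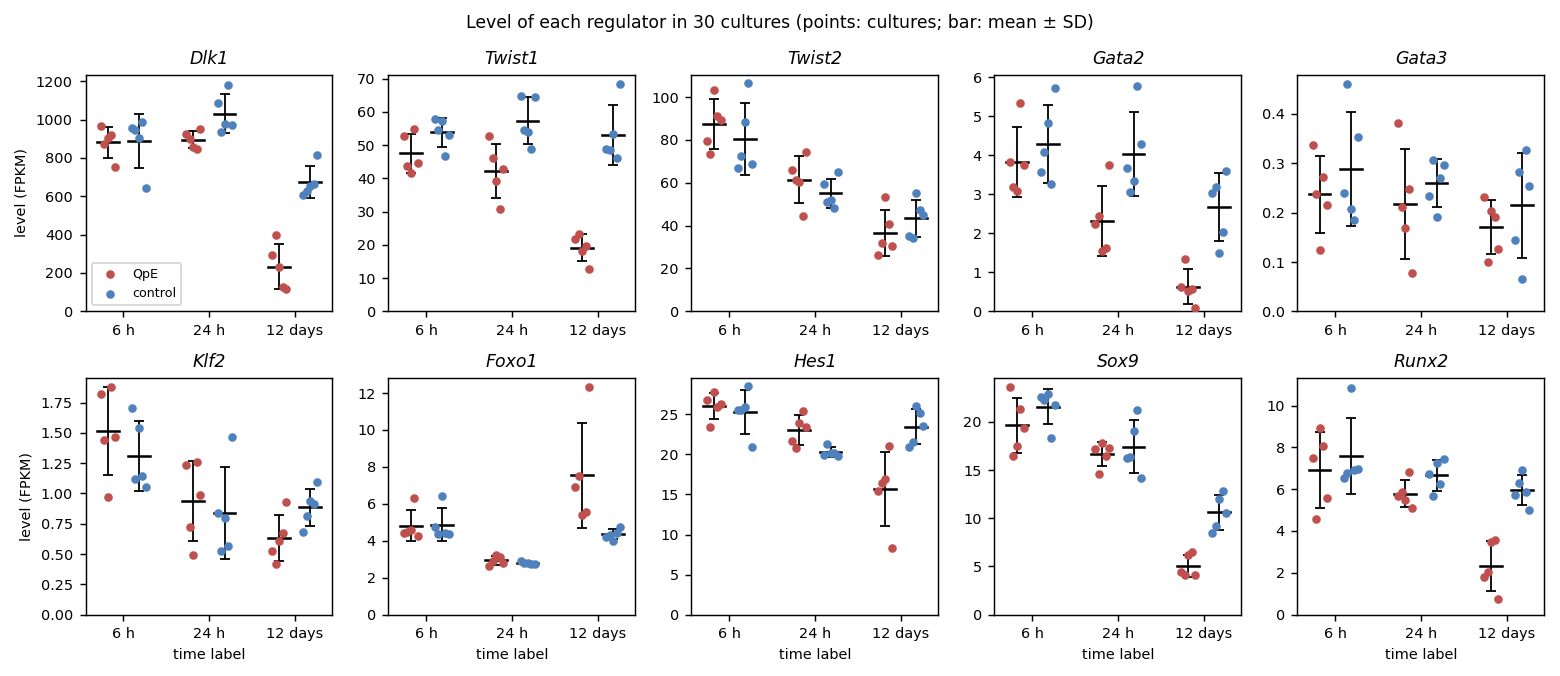
Level of each of the 10 genes in FPKM (vertical axis, linear, from 0) in every culture, by time label and treatment. Points are cultures and black bars the mean ± SD of 5. Dlk1, Twist1, Gata2, Sox9 and Runx2 lie lower in all 5 QpE cultures at 12 days than in any control at that time, and Foxo1 lies higher.

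At 12 days, 5 of the 9 tested genes were lower with QpE and none was called higher. These were Dlk1, Twist1, Gata2, Runx2 and Sox9, by limma on log2(FPKM + 1) over all 18035 gene rows (Benjamini-Hochberg adjusted p under 0.05, two-sided). Among all gene rows 2.73% were called lower and 2.13% higher. With TPM scaling the gene rows called were 527 lower and 166 higher, against 493 and 384 without it. The median difference was -0.94 over the 9 genes and -0.01 over all gene rows. In bulk RNA, fewer cells of a type and less RNA per cell cannot be told apart.

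Dlk1 had 293, 396, 233, 125 and 119 FPKM in the QpE cultures at 12 days, against 606, 628, 655, 665 and 814 in the controls. Every QpE culture was below every control, and the QpE cultures differed among themselves more than the controls did. Its means were 233 ± 117 FPKM with QpE and 674 ± 81.8 FPKM in controls (SD, n = 5 each), so the QpE mean was 34.6% of the control mean. The log2 difference was -1.67 ± 0.32 (SE; limma adjusted p = 0.0294), and -1.47 without QpE replicate 5, the lowest culture.

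Sox9, which acts downstream of DLK1 in preadipocytes, had 4.42, 4.14, 6.17, 6.47 and 4.08 FPKM in QpE cultures at 12 days, against 8.43, 9.19, 12.0, 12.8 and 10.6 in controls. The groups did not overlap. The QpE mean was 47.7% of the control mean, with a log2 difference of -0.94 ± 0.17 (SE, n = 5; limma adjusted p = 0.0249).

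Twist1 had 21.9, 23.1, 18.3, 19.6 and 12.7 FPKM in QpE cultures at 12 days, against 48.8, 48.6, 53.4, 46.2 and 68.5 in controls. The highest QpE culture lay far below the lowest control. Means were 19.1 ± 4.06 FPKM with QpE and 53.1 ± 8.98 FPKM in controls (SD, n = 5 each), with a log2 difference of -1.44 ± 0.17 (SE; limma adjusted p = 0.0122). Twist2, its close relative, had a range of 26.1 to 53.2 FPKM with QpE and of 34.4 to 55.1 in controls, and these ranges overlapped. Its log2 difference was -0.26 (95% interval -0.72 to 0.19, limma adjusted p = 0.501). The difference between the responses of these 2 genes was not tested.

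Gata2 had 0.63, 1.33, 0.53, 0.57 and 0.10 FPKM in QpE cultures at 12 days, against 3.04, 3.19, 1.49, 2.04 and 3.59 in controls. The groups did not overlap, though the highest QpE culture came close to the lowest control. The QpE mean was 23.7% of the control mean. On the log2(FPKM + 1) scale the difference was -1.17 ± 0.24 (SE, n = 5; limma adjusted p = 0.0320), and -2.11 with a pseudocount of 0.1, since the added 1 understates changes of low genes. Without QpE replicate 5, where Gata2 rested on about 1 fragment, the difference was -1.04 (adjusted p = 0.0420). Its most abundant transcript alone missed the threshold (-1.03, adjusted p = 0.0669).

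Gata3 stayed near the floor at 12 days, at 0.10 to 0.23 FPKM with QpE and 0.07 to 0.33 FPKM in controls. Klf2, a low-level repressor of Pparg, had 0.63 ± 0.19 FPKM with QpE and 0.89 ± 0.15 FPKM in controls at 12 days (SD, n = 5 each), with overlapping cultures and a log2 difference of -0.21 (95% interval -0.49 to 0.06, limma adjusted p = 0.368).

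Runx2 had 1.82, 2.05, 3.45, 3.58 and 0.77 FPKM in QpE cultures at 12 days, against 5.73, 6.30, 6.93, 5.88 and 5.01 in controls. No QpE culture reached the lowest control. The QpE mean was 39.1% of the control mean and the log2 difference -1.14 ± 0.25 (SE, n = 5; limma adjusted p = 0.0381). Runx2 missed the threshold with a pseudocount of 0.1, and with its most abundant transcript only the difference was -0.33 (adjusted p = 0.714).

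Hes1 had 15.5, 16.5, 16.9, 21.03 and 8.33 FPKM in QpE cultures at 12 days, against 20.98, 21.5, 26.02, 25.2 and 23.6 in controls. QpE replicate 4 lay just above the lowest control, so the groups overlapped by 1 culture, and QpE replicate 5 was far below the rest. The log2 difference of -0.60 (95% interval -1.06 to -0.15) did not pass the threshold (limma adjusted p = 0.114).

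Foxo1 had 6.92, 7.51, 5.38, 5.54 and 12.3 FPKM in QpE cultures at 12 days, against 4.22, 4.31, 4.01, 4.43 and 4.76 in controls. All QpE cultures were above all controls, as was the case for 4.35% of gene rows in that direction, while 6.08% of gene rows, and 5 of these 9 genes, were lower without overlap. The log2 difference was 0.62 (95% interval 0.18 to 1.06) and did not pass (limma adjusted p = 0.0973). When 1 spread was fitted to all 30 libraries, Foxo1 (adjusted p = 0.00264) was called higher and Hes1 (adjusted p = 0.00223) lower. Under that fit 8.86% of gene rows were lower and 7.25% higher.

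**Figure D2:**
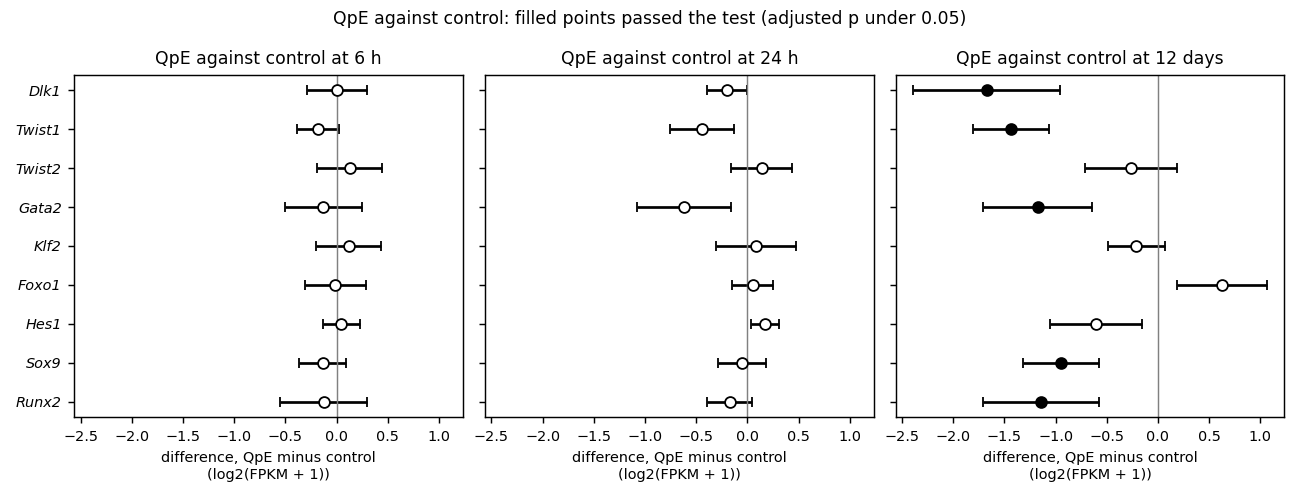
Difference of QpE minus control on the log2(FPKM + 1) scale (horizontal axis) for the 9 tested genes (rows) at 6 h, 24 h and 12 days, with 95% intervals from limma. Filled points passed the threshold: none at 6 h or 24 h, and Dlk1, Twist1, Gata2, Sox9 and Runx2 at 12 days.

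The number of genes called at 12 days changed with the cultures included. Twist1 was called without any 1 of the 10 cultures, and its difference ran from -1.51 to -1.31. It was the only one called without control replicate 2, 3, 4 or 5, when 33 to 53 gene rows in all were called lower, and Sox9 joined it without control replicate 1 or QpE replicate 3. Dlk1, Sox9 and Twist1 were called without QpE replicate 1, these and Gata2 without QpE replicate 2, and all 5 genes without QpE replicate 4 or 5. The number of all gene rows called also changed, from 54 to 761 over the 10 fits without 1 culture, against 877 with every culture. Without any 1 culture the difference of Dlk1 stayed between -1.90 and -1.47, of Sox9 between -1.03 and -0.88, of Gata2 between -1.31 and -1.04 and of Runx2 between -1.27 and -0.93.

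Among the 5 QpE cultures at 12 days, replicate 5 had the lowest Dlk1, Twist1, Gata2, Hes1, Sox9 and Runx2 and the highest Foxo1. That culture also had the lowest summed level of the 12 preadipocyte and fibroblast markers, 495 FPKM, while the other QpE cultures had 2023 to 3029 FPKM and the controls 5688 to 6619 FPKM. Summed levels of 12 fat cell markers ran from 3454 to 9814 FPKM with QpE and from 1243 to 6390 FPKM in controls, and these ranges overlapped. Replicates 3 and 4 had the lowest sums in both treatments, at 4609 and 3454 FPKM with QpE and 1243 and 1855 FPKM in controls. At each replicate number the QpE sum was above the control sum. The part of this marker level in the differences of the 5 genes was not tested.

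At 6 h, 0 of the 9 genes passed, with 0 at an unadjusted p under 0.05, and limma called 0% of gene rows lower and 0.00554% higher. An unadjusted p under 0.05 was found in 596 of the 18035 gene rows. The fit of all 30 libraries also called 0 of the 9. Dlk1 averaged 882 ± 80.8 FPKM with QpE and 887 ± 140 FPKM in controls (SD, n = 5 each). Its log2 difference was 0.00, with a 95% interval of -0.29 to 0.30. Differences of the 9 genes ran from -0.18 (Twist1) to 0.13 (Twist2).

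At 24 h, 0 of the 9 genes passed (limma, 0.00554% of gene rows lower and 0.0111% higher; 0 of 9 in the fit of all 30 libraries), and 3 had an unadjusted p under 0.05. Of the 18035 gene rows, 1291 also had an unadjusted p under 0.05. Twist1 had 52.7, 46.2, 39.1, 30.7 and 42.8 FPKM with QpE, against 64.9, 54.6, 54.1, 49.0 and 64.4 in controls, and the groups overlapped in 1 QpE culture. Its log2 difference was -0.44 (95% interval -0.76 to -0.13, limma adjusted p = 0.639). Gata2 had 2.23, 2.43, 1.54, 1.61 and 3.74 FPKM with QpE, against 3.67, 3.06, 3.33, 5.78 and 4.30 in controls, with QpE replicate 5 above 3 of the controls. The difference of summed Gata2 was -0.62 (95% interval -1.08 to -0.16, limma adjusted p = 0.655), and from -0.81 to -0.28 under alternatives. Part of this sum is ENSMUST00000203579, a retained intron without coding sequence, at 0.32 FPKM with QpE and 1.35 FPKM in controls. The main coding transcript of Gata2 averaged 1.92 FPKM with QpE and 2.61 FPKM in controls. Hes1 averaged 23.1 ± 1.83 FPKM with QpE and 20.3 ± 0.59 FPKM in controls (SD, n = 5 each), a log2 difference of 0.17 (limma adjusted p = 0.655) in the opposite direction to that at 12 days.

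Whether the QpE difference itself changed between times was tested as an interaction. Between 12 days and 24 h, 0 of the 9 genes passed in limma on the 4 groups involved, where 0.0166% of gene rows were lower and 0.0111% higher. An unadjusted p under 0.05 was found in 6 of the 9 genes and in 2374 of the 18035 gene rows. The nearest were Sox9 (difference of differences -0.89, adjusted p = 0.0639), Twist1 (-0.99, 0.0678) and Dlk1 (-1.48, 0.0761). With 1 spread fitted to all 30 libraries Dlk1, Hes1, Sox9 and Twist1 passed, and under that fit 1.28% of gene rows were lower and 0.743% higher. Leaving out 1 culture also changed the count: Dlk1 and Twist1 passed without QpE replicate 2 at 12 days, Hes1 and Twist1 without QpE replicate 5, Sox9 without QpE replicate 4, and Twist1 without QpE replicate 4 at 24 h. Between 24 h and 6 h, 0 of 9 passed, with 0 at an unadjusted p under 0.05 and 0 in the fit of all 30 libraries. In that comparison 811 of the 18035 gene rows had an unadjusted p under 0.05.

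The controls show how these genes moved over the culture without QpE. Dlk1 averaged 887 ± 140 FPKM at 6 h, 1030 ± 101 FPKM at 24 h and 674 ± 81.8 FPKM at 12 days (SD, n = 5 each). At 12 days against 24 h, Dlk1 fell by 0.61 and Sox9 fell by 0.67 on the log2 scale, and Foxo1 rose by 0.49 (limma adjusted p = 0.00308, 0.00702 and 0.00333), while the other 6 genes did not pass. In that comparison 12.3% of gene rows were lower and 8.11% higher at 12 days. Twist1, at 53.9, 57.4 and 53.1 FPKM over the 3 times, and Runx2, at 7.60, 6.66 and 5.97 FPKM, were not called between any neighbouring times in controls.

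In the QpE cultures, 6 of the 9 genes were lower at 12 days than at 24 h and 1 was higher (limma; 17.5% of gene rows lower and 11.8% higher). Dlk1 was at 233 FPKM at 12 days and 895 FPKM at 24 h (log2 difference -2.09), and Sox9 was at 5.06 FPKM at 12 days and 16.7 FPKM at 24 h (-1.56). Twist1 (-1.11), Runx2 (-1.10), Gata2 (-1.02) and Twist2 (-0.76) also fell and Foxo1 rose by 1.06, with adjusted p between 7.3e-05 and 0.0168. These values share the QpE cultures with the comparisons above and are not independent of them.

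At 24 h against 6 h fewer of the 9 genes passed in QpE cultures than at 12 days against 24 h, and as many in controls. In controls Foxo1 fell by 0.62, Twist2 fell by 0.52 and Hes1 fell by 0.30 on the log2 scale (limma adjusted p = 0.00736, 0.0354 and 0.0289; 6.79% of gene rows lower and 5.62% higher). Foxo1 in controls was at 2.80 ± 0.07 FPKM at 24 h and 4.87 ± 0.89 FPKM at 6 h (SD, n = 5 each). In QpE cultures Foxo1 fell by 0.55 and Twist2 fell by 0.51 (limma adjusted p = 0.0141 and 0.0381; 6.25% of gene rows lower and 6.58% higher). Foxo1 passed in both treatments without any 1 culture. With all 30 libraries in 1 fit, Foxo1 was the only one called in controls (4.99% of gene rows lower and 3.94% higher). In controls only Foxo1 was called without replicate 1 or 3 at 24 h or replicate 2 or 3 at 6 h. In QpE cultures only Foxo1 was called without replicate 1, 2 or 3 at 24 h or replicate 1, 3, 4 or 5 at 6 h.

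Transcript models divided the genes into simple and complex loci. Twist1, Klf2, Foxo1 and Sox9 had 1 named transcript each. Dlk1 had 10, of which 8 averaged at least 1 FPKM, and ENSMUST00000109842 carried 68.2% of its level over the 30 libraries. That transcript had 165 ± 95.8 FPKM with QpE and 427 ± 24.8 FPKM in controls at 12 days (SD, n = 5 each), and its log2 difference was -1.57 (limma adjusted p = 0.0570). A further 3 unnamed transcripts held 12.7% of the locus. With them joined in, Dlk1 was still called.

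Splicing of Dlk1 is known to remove the stretch where the outer part is cut off, so transcript choice bears on whether the protein can be shed. The longest coding sequence among the named transcripts, 1155 bases, was shared by 2 of them, which made up 12.9 ± 3.38% of Dlk1 with QpE and 17.9 ± 10.3% in controls at 12 days (SD, n = 5 each). These shares ran from 10.8% to 18.8% with QpE and from 11.9% to 35.8% in controls, so the groups overlapped. The highest share came from control replicate 5, in which ENSMUST00000109844 alone was listed at 278 FPKM.

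Runx2 begins at a distal start, which gives the bone form, and at a proximal start. The 6 proximal transcripts carried 98.4% of Runx2 over the 30 libraries, and the 7 distal ones, whose promoter is printed above, were at 0 in 23 libraries and in all 10 at 12 days. The proximal level was divided unevenly between ENSMUST00000113572 (6463 bases) and ENSMUST00000162130 (693 bases). At 12 days the longer had 1.36 ± 0.56 FPKM with QpE and 2.23 ± 1.33 FPKM in controls, and the shorter 0.80 ± 1.10 FPKM with QpE and 3.61 ± 1.46 FPKM in controls (SD, n = 5 each). The shorter was listed at 0 in 3 QpE cultures, and the difference given above is that of the summed gene. Supt3, on the opposite strand of this locus, averaged 12.3 FPKM. The library kit keeps strand, but whether strand was used in counting is not given in the sources used here, so reads of the 2 genes may not be fully separated.

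**Figure D3:**
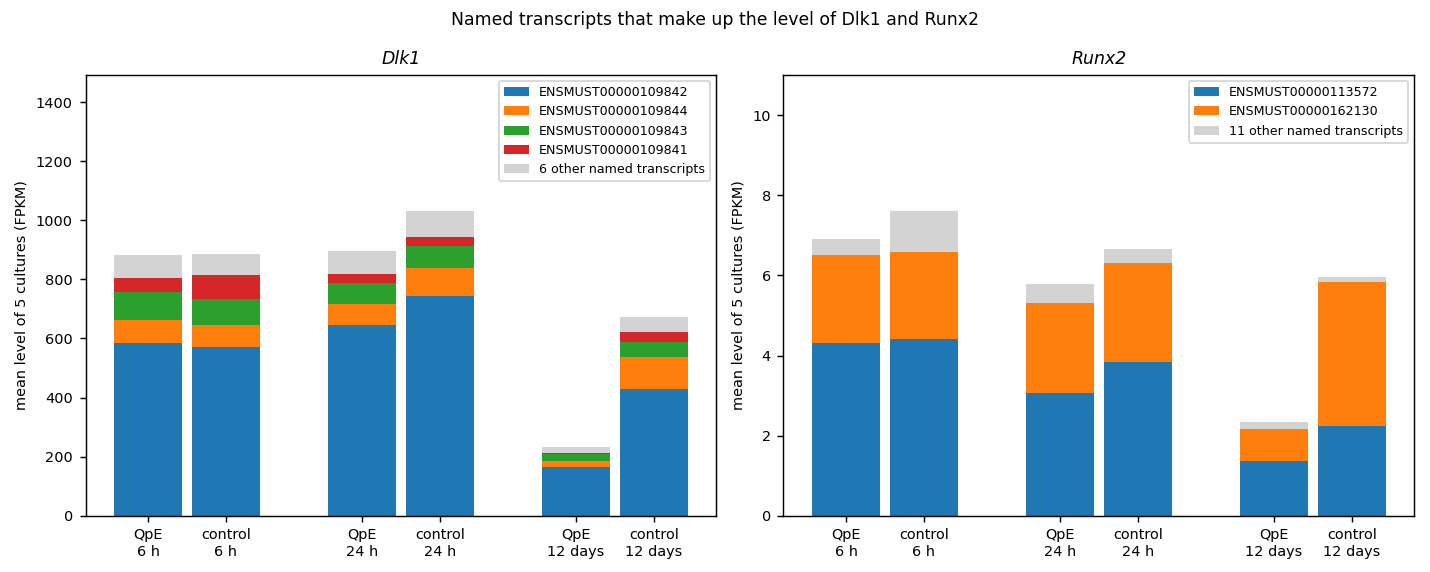
Mean level in FPKM (vertical axis, 5 cultures per bar) of the named transcripts of Dlk1 and Runx2 in each group, stacked from 0. In Dlk1 the same transcript leads in all groups, and in Runx2 the longer and the shorter of the leading pair have 1.36 and 0.80 FPKM in QpE at 12 days and 2.23 and 3.61 FPKM in controls.

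The other genes of these pathways were read from lists of 171 genes, 5 of which stand in 2 lists. At 6 h and 24 h, 0 genes of any list passed between QpE and control in limma or in the fit of all 30 libraries. The counts that follow are for QpE against control at 12 days, where 2.73% of gene rows were lower and 2.13% higher, and the lists served as descriptions with no test of their own. In the fit of all 30 libraries 8.86% of gene rows were lower and 7.25% higher. The fits without 1 culture, that without QpE replicate 5 among them, called 54 to 761 gene rows in all.

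Of 16 tested restraints on fat cell formation other than the 10 genes, 2 were lower and none higher (median -0.11), and the fit of all 30 libraries called 5 lower and 1 higher. Nr2f1, an orphan nuclear receptor, had a log2 difference of -0.96 ± 0.21 (SE, n = 5; limma adjusted p = 0.0364), with 2.44 ± 0.87 FPKM in QpE cultures and 5.51 ± 0.76 FPKM in controls. Smad3, which carries TGF-beta signals, fell by 0.83 ± 0.17 (adjusted p = 0.0320). Wwtr1, which encodes the coactivator TAZ, was not called, with a difference of -0.02.

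Of 13 tested TWIST partners and mesenchymal factors, 4 were lower and none higher (median -0.53). Id4, an inhibitor of bHLH factors, fell by 1.55 ± 0.25 (SE, n = 5; limma adjusted p = 0.0189), with 2.16 ± 1.06 FPKM in QpE cultures and 7.90 ± 1.28 FPKM in controls. The homeobox gene Prrx2 fell by 1.00, and Tcf4 and Tcf3, which encode E proteins that pair with TWIST1, fell by 0.58 and 0.52. Tcf12, the remaining E protein gene, differed by 0.08 and was not called. Without QpE replicate 5, 3 of the 13 were lower, and in the fit of all 30 libraries 8 were.

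In the Notch list 0 of 15 tested genes passed in limma (median -0.22), while the fit of all 30 libraries called 2 lower. The receptors Notch1, Notch2 and Notch3 differed by -0.32, -0.39 and -0.37, and Rbpj, the DNA-binding partner of the cleaved receptor, by -0.22 (limma adjusted p of at least 0.172 for each). Dlk2, the sister gene of Dlk1, reached 1 FPKM in too few libraries to be tested.

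Of 5 tested GATA cofactors and family genes, 1 was lower: Ldb1, an adaptor of GATA complexes, fell by 0.54 (limma adjusted p = 0.0414), and it was not called without QpE replicate 5. The fit of all 30 libraries called 2 genes of this list lower and 1 higher. Zfpm1 and Zfpm2, the FOG cofactors of GATA factors, differed by -0.49 and -0.86 and did not pass (adjusted p = 0.198 and 0.0875). In the KLF family 1 of 11 was lower, Klf6, a factor that favours fat cell formation by repressing Dlk1. Klf6 had 10.7 ± 1.42 FPKM with QpE and 14.8 ± 0.47 FPKM in controls (SD, n = 5 each; limma adjusted p = 0.0387). Without QpE replicate 5, 0 KLF genes were lower and 1 was higher, and the fit of all 30 libraries called 2 lower and 3 higher.

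Among 18 tested FOXO family genes and targets, 1 was lower and none higher, although the median was 0.30. Sesn3, a FOXO target that encodes a stress sensor, fell by 1.00 ± 0.16 (SE, n = 5; limma adjusted p = 0.0189), with 17.5 ± 3.98 FPKM in QpE cultures and 35.5 ± 3.15 FPKM in controls. Foxo3 differed by 0.17 (adjusted p = 0.630). Without QpE replicate 5, 1 was lower and 2 were higher, and the fit of all 30 libraries called 1 lower and 3 higher.

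Only 6 of 18 RUNX2 partners and bone genes were tested, and 0 passed (median -0.46; 2 lower in the fit of all 30 libraries). Cbfb, the DNA-binding partner of RUNX2, differed by -0.20 (limma adjusted p = 0.253). Sp7, which acts after RUNX2 in bone cells, did not exceed 0.11 FPKM in any library, and Bglap, the osteocalcin gene, did not exceed 0.37 FPKM. Mmp13, a collagenase gene of hypertrophic cartilage and bone, rose by 1.69 in controls at 12 days against 24 h (limma adjusted p = 0.0106), and its QpE difference of -2.24 at 12 days did not pass (adjusted p = 0.162). Without QpE replicate 5, 1 gene of this list was lower.

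Only 2 of 15 SOX9 partners and cartilage genes were tested. Col11a1, a fibrillar collagen gene, had a log2 difference of -1.58 ± 0.32 (SE, n = 5; limma adjusted p = 0.0320), with 3.98 ± 2.42 FPKM in QpE cultures and 12.7 ± 2.58 FPKM in controls. Sox5 and Sox6, the partners of SOX9 in cartilage, did not exceed 1.29 and 0.03 FPKM, and Col2a1 and Acan, the leading cartilage matrix genes, did not exceed 0.03 and 0.01 FPKM.

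The labelled cell type was checked against marker lists. At 12 days against 24 h, 10 of 12 fat cell markers rose in controls (limma; 8.11% of gene rows higher). At 12 days 0 of 12 passed between QpE and control (median 0.87; 1 higher in the fit of all 30 libraries). Adiponectin (Adipoq), picked from these 12 after its values were seen, averaged 697 ± 366 FPKM with QpE and 602 ± 385 FPKM in controls at that time (SD, n = 5 each). The sum of the 12 markers was higher with QpE at each replicate number, as given above. Of 10 tested preadipocyte and fibroblast markers 1 was lower with QpE, the collagen gene Col1a1 (330 ± 149 FPKM with QpE and 1050 ± 66.3 FPKM in controls), with a median of -1.37 over the list. This count was 7 in the fit of all 30 libraries, where 8.86% of gene rows were lower, and 6 without QpE replicate 5. Macrophage markers had 2 of 6 tested and 0 called, with sums of 3.84 to 6.95 FPKM with QpE and 2.96 to 6.45 FPKM in controls. All 6 endothelial markers were below the filter. Of 6 muscle markers only Des was tested, and it was higher with QpE (0.91, adjusted p = 0.0462) but was not called without QpE replicate 5, while the muscle regulators Myod1, Myog and Myf5 were listed at 0 in all 30 libraries.

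**Figure D4:**
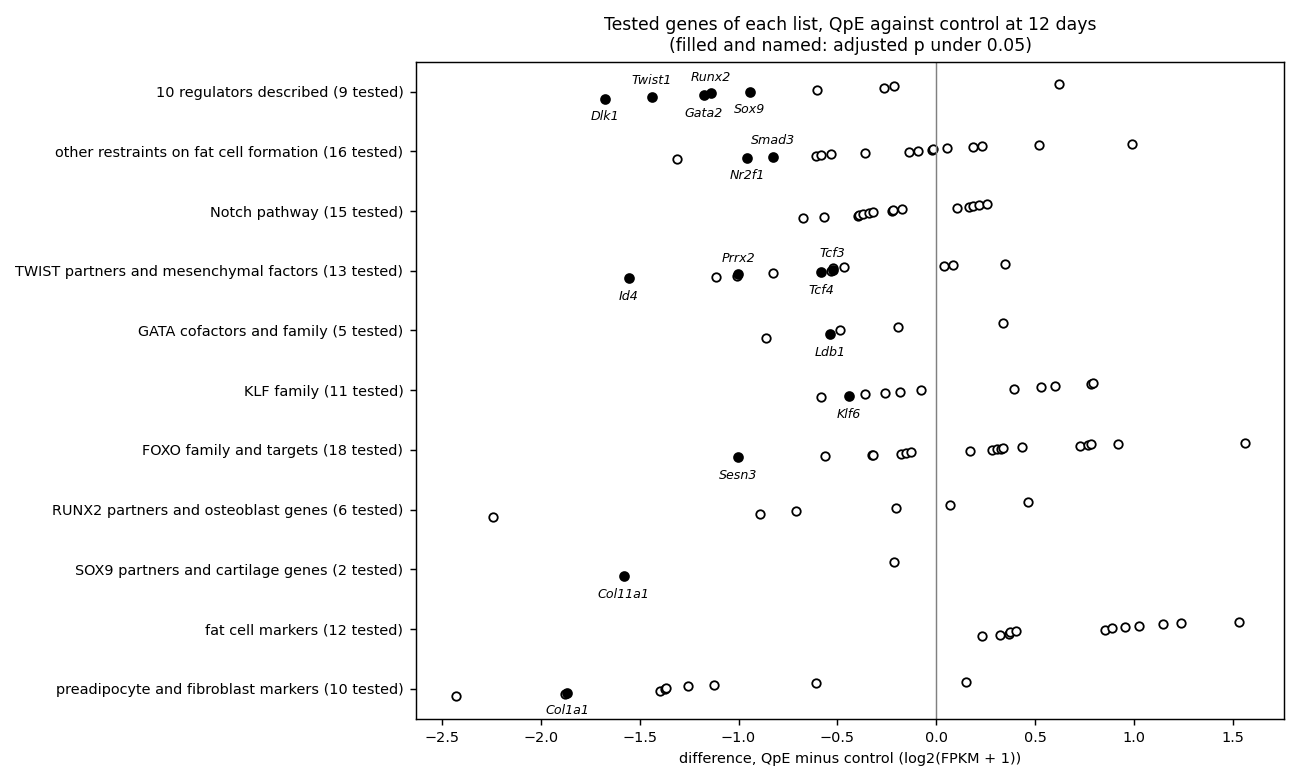
Difference of QpE minus control at 12 days on the log2(FPKM + 1) scale (horizontal axis) for each tested gene of the 10 regulators and of 10 other lists (rows). Filled, named points passed the threshold. All of these are below 0, from Dlk1 among the 10 regulators to Col1a1 among fibroblast markers. The lists drawn leave out the macrophage, endothelial and muscle markers. The muscle marker Des, which is not drawn, was called higher with QpE (0.91).

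For the 7 genes whose group means spanned at least 1 log2 unit, the 3 named genes closest in pattern were found by the root mean square difference of centred log2(FPKM + 1) values over the 30 libraries. Closest to Dlk1 were Cd248 (0.25), Fam43a (0.26) and Fzd1 (0.27), where the median over all named tested genes was 0.89. Closest to Twist1 were Mkx (0.22), Epb41l4b (0.23) and Loxl1 (0.23), with a median of 0.66 over all. Mkx, at 0.29, was also among the 3 closest to Gata2, after Efnb2 (0.25) and Mcc (0.27). Sox9 was nearest to Ckap4 (0.20), Atp8b2 (0.22) and Sgk1 (0.23), and Runx2 to Swap70 (0.23), Smad3 (0.24) and Sox4 (0.25). Twist2 was nearest to Kctd5 (0.16), Cmtm7 (0.20) and Arhgef17 (0.21). Foxo1 was nearest to Rcl1 (0.19), Twnk (0.21) and Glud1 (0.21), which had higher means with QpE than in controls at 12 days, as Foxo1 did. All of these genes share the same 30 libraries, and the values are descriptions.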

How the data were processed

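Per the labels' protocols, poly(A) RNA of 30 cultures was made into directional libraries and read as pairs of 75 bases. The authors deposited FPKM per transcript in 1 table. Per the submitters' processing notes the tools were HISAT, HISAT2 and StringTie, without versions, on GRCm38. How reads were counted is not given in the sources used. In 10 libraries 11 deposited FPKM values lay just below 0 (lowest -7e-05) and were set to 0. FPKM totals were 413502 to 500489 per library. Depth estimated from steps of low FPKM values was 9.52 to 17.5 in units of 1e+06 fragments, and it is approximate.

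Named transcripts were summed per gene, and log2(FPKM + 1) was tested with limma 3.58.1 (mean-variance trend, R 4.3.3) on the compared groups, over 18035 gene rows at or above 1 FPKM in at least 5 libraries, unnamed loci included. No count model was applied, because FPKM values are normalised. The test was run on simulated data with noise drawn independently for each gene. Those data hold no shift of many genes in 1 culture, so they do not check the calls in that setting. Transcript coordinates matched GENCODE M21 for 98.13% of 133390 shared transcripts. Motif words were searched on both strands.

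Genes named beyond the 10 were, per list, up to 4 called genes with the largest differences and defining partners, and the 3 nearest in pattern. Wwtr1, Dlk2, Sp7, Bglap, Mmp13, Col2a1, Acan and Adipoq were added after their values were seen. The members, lists and tests were chosen with earlier results of these data known. Alternatives were all 30 libraries in 1 fit, other pseudocount, filter, scaling and transcript handling, a replicate block, and each culture left out.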

Additional observations from a re-analysis of the deposited data

Results flagged for a closer look

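In 6 of the 60 groups of 5 cultures (10 genes in 6 groups), 1 culture stood far from the other 4, with a gap above Dixon's critical value of 0.71. Chance alone flags about 1 in 20 groups. At 6 h, Dlk1 was 644 FPKM in control replicate 5, below 903 to 989 FPKM in the other controls. Foxo1 was 6.31 FPKM in QpE replicate 4 at 6 h, above 4.28 to 4.60 FPKM in the other QpE cultures, and 6.44 FPKM in control replicate 3 at 6 h, above 4.37 to 4.75 FPKM. The same control replicate 3 had 10.8 FPKM of Runx2, above 6.52 to 6.97 FPKM in the other controls at 6 h. Sox9 was 18.4 FPKM in control replicate 4 at 6 h, below 21.7 to 22.9 FPKM. Hes1 was 21.3 FPKM in control replicate 2 at 24 h, above 19.8 to 20.2 FPKM. Of the 6 groups, 5 are at 6 h and none at 12 days.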

How the results depend on the processing

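For QpE against control at 12 days, 5 genes were called as reported, 2 with no filter on low values, 2 with the most abundant transcript only, 3 with the replicate block (adjusted p of 0.054 for Dlk1 and 0.0528 for Gata2), and 1 to 5 without any 1 culture. With all 30 libraries in 1 fit the count was 7, with 6 lower and 1 higher. For controls at 24 h against 6 h the count was 3, and 1 with all 30 libraries in 1 fit, with no filter or with the replicate block, and 1 to 3 without any 1 culture. For QpE cultures at 24 h against 6 h it was 2, and 1 with no filter or with the replicate block, and 1 to 3 without any 1 culture. The interaction of 12 days with 24 h had 0, but 4 with all 30 libraries in 1 fit, 3 with unnamed transcripts joined in, 1 with the replicate block, 5 with all 30 libraries and the replicate block together (chosen after seeing the data), and 0 to 2 without any 1 culture. The cause of these changes was not tested. Among 81 differences of single genes, 68 values under alternatives lost the threshold, 37 gained it, 1614 kept their side and none reversed a called direction.

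The counts at 12 days of all gene rows were 493 lower and 384 higher, against 1598 and 1307 with all 30 libraries, 195 and 169 with no filter, 205 and 171 with the most abundant transcript only, 1047 and 740 with unnamed transcripts joined in, 313 and 367 with the replicate block, and 527 and 166 with TPM scaling. All 30 libraries with the replicate block gave 1754 and 1483, and without any 1 culture 54 to 761 were called in all. At 24 h 3 gene rows were called, against 0 with all 30 libraries, no filter, unnamed transcripts joined in or the replicate block, and 0 to 8 without any 1 culture. At 12 days correlations of deviations between cultures of the same number were 0.11, 0.08, 0.18, 0.21 and 0.11. All were above the mean correlations with other numbers, which ran from -0.06 to -0.02. Not every culture correlated best with its own number, and the numbers were not taken as pairs. Whether several numbers together form a set that shares conditions was not tested. Low depth touches Gata2, Gata3 and Klf2, each with under 10 fragments in its lowest library.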
